A study of Mus musculus with 2 samples.

Results

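MicroRNA precursors are the RNAs from which microRNAs are cut, and 128 of the 526 microRNA gene symbols on the array had a signal high enough to be described. They were taken as the symbols that begin with Mir or Mirlet followed by a digit. For each symbol the row of the table with the highest mean signal was kept, and the higher of the control and ablated signals had to reach 6.445 on the log2 scale. That value is the median of the higher signal over all 24646 symbols of the table, of which 12323 passed. The members were chosen by the signals themselves, so their levels and differences are given as a description with no test.

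The cells came from mammary glands of 10-week-old littermate mice and were sorted for green fluorescence. The Rosa26mTmG reporter turns green in cells that carry Fsp1Cre, a Cre recombinase under the promoter of Fsp1 (S100a4). Both samples carry that Cre and that reporter. The control sample had intact Gli2 (Gli2WT), and the ablated sample had Gli2 removed in cells with the Cre (Gli2∆S). Gli2 is a transcription factor at the end of the hedgehog pathway. With 1 sample per group no difference below has a replicate check, and the number of arrays limits the precision.

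A microRNA gene is first copied into a long primary transcript, from which Drosha and Dgcr8 cut a short hairpin in the nucleus. Xpo5 exports the hairpin, Dicer1 trims it to a duplex, and an Argonaute protein keeps 1 strand, the mature microRNA. The mature strand finds messenger RNAs mainly through its seed, bases 2 to 8, so microRNAs with the same seed form a family. Many microRNA genes lie in introns of other genes, and several may sit side by side on 1 primary transcript. The labels name no step that keeps small RNA, and no probe positions were at hand. A signal can therefore come from the hairpin or from a longer transcript that holds it, and it is no measure of the mature microRNA.

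The hairpins below belong to 4 members near the ends of the range of differences and to a neighbouring pair on chromosome 8 whose differences had opposite signs. They are RefSeq sequences of GRCm38.p6, 5′ to 3′, with the mature arms that the table annotates in capitals, which for Mir301b is 1 arm. Mir124a-2, at the upper end with Mir186, is named only. Mir186 lies at chr3:157544279-157544349 on the plus strand and Mir3101 at chr7:27176006-27176093 on the minus strand. Mir301b lies at chr16:17124400-17124496 and Mir3092 at chr3:27584900-27584995, both on the minus strand. Mir23a lies at chr8:84208518-84208592 and Mir27a at chr8:84208672-84208758, both on the plus strand.
Mir186: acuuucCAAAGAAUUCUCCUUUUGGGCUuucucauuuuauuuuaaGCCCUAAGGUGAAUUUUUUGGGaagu
Mir3101: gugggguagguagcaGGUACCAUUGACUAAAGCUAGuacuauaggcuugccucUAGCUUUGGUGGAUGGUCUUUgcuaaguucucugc
Mir301b: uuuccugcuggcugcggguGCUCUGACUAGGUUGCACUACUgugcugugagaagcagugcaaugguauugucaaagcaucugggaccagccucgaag
Mir3092: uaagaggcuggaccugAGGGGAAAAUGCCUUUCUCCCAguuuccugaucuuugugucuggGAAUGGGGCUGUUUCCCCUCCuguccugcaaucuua
Mir23a: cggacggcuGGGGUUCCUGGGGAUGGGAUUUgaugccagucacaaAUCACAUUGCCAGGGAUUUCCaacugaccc
Mir27a: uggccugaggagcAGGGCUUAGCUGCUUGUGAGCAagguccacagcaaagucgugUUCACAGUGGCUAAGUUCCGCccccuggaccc

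Of the 128 members, 122 matched a RefSeq gene by accession, symbol or synonym, and 100 had a mature sequence in the RefSeq table. Those 100 gave 158 mature sequences with 152 different seeds. Only 6 seeds were shared, each by 2 members. Among these 100, no seed was shared by more than 2 members, and the other 28 members were not compared by seed. The shared seeds are shown in capitals because they say which members could act on the same messenger RNAs.
Mir181c (mmu-miR-181c-5p): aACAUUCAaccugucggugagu
Mir181d (mmu-miR-181d-5p): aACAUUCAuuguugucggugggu
Mir15a (mmu-miR-15a-5p): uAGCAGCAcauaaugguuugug
Mir16-2 (mmu-miR-16-5p): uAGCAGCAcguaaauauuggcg
Mir25 (mmu-miR-25-3p): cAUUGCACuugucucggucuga
Mir92b (mmu-miR-92b-3p): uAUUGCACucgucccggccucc
Mir7-1 (mmu-miR-7a-5p): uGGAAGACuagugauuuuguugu
Mir7b (mmu-miR-7b-5p): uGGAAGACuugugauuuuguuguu
Mir3473d (mmu-miR-3473d): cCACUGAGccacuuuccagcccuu
Mir674 (mmu-miR-674-5p): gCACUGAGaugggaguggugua

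The last shared seed belongs to Mir680-1 and Mir680-2, which are annotated with the same mature sequence on different chromosomes.

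The sorted cells held RNA of several cell types, which bears on every level given here. All 10 fibroblast markers passed the signal filter, and their control signals ran from 8.16 (S100a4, the gene whose promoter drives the Cre) to 12.51 (Dcn, decorin). All 10 were lower in the ablated sample, 7 by 2-fold or more, and the median of their differences was -1.34. Leukocyte markers were bright in both samples: Ptprc, the pan-leukocyte phosphatase CD45, had 11.70 and 11.82, the B cell receptor chain Cd79a 11.51 and 11.53, and the T cell receptor chain Cd3e 11.09 and 11.43. Of 6 epithelial markers, 4 passed: the adhesion genes Epcam (9.52 and 9.25) and Cdh1 (9.15 and 8.78) and the luminal keratins Krt8 (10.06 and 10.18) and Krt18 (9.74 and 9.72), with a median difference of -0.15. The basal keratins Krt14 (6.10 in both samples) and Krt5 (6.30 and 5.89) did not. All 3 endothelial markers passed and were lower with Gli2 ablated, with a median of -0.64: Pecam1 had 10.29 and 10.21, the junction gene Cdh5 10.21 and 9.36, and the growth factor receptor gene Kdr 7.24 and 6.60. In bulk samples, fewer cells of a type and less RNA per cell cannot be told apart. Gli2 had 5.94 in control and 5.32 in ablated cells, both below the filter, and a second deposited table gives another value for it (under other observations).

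Members were dimmer than the other symbols that passed. Their control signals ran from 5.39 to 12.60 with a median of 7.20, and their ablated signals from 5.95 to 12.66 with a median of 7.22. The median control signal over all 12323 passing symbols was 7.77. A mean signal of at least 8 was reached by 37 members (28.9%), against 43.4% of all passing symbols, and at least 10 by 7 members (5.47%), against 7.30%. The brightest member was Mir5099, with 12.60 in control and 12.66 in ablated cells. Mir449b followed with 11.62 and 11.56, then Mir692-1 with 10.85 and 10.68. The next were Mir5123 (10.44 and 10.63), Mir703 (10.45 and 10.48), Mir680-2 (10.23 and 10.18), Mir5125 (10.08 and 10.00), Mir761 (9.77 and 9.73), Mir1195 (9.48 and 9.52) and Mir1938 (9.30 and 9.54). All 10 differed by at most 0.24 between the samples, in either direction.

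No probe positions were at hand and some rows list another gene, so brightness does not rank the members by abundance. Mir449b lies inside Cdc20b (5.94 and 5.87) and Mir703 inside Cfap299 (3.56 and 4.07), both below the filter, with the strand not known here. On the same strand, the genes that hold Mir5123 (B4galt1, 10.19 and 10.18) and Mir5125 (Srrm2, 11.78 and 11.69) passed. So did those of Mir761 (Nrd1, 10.41 and 10.4) and Mir1938 (Ifrd1, 9.39 and 9.48). Whether these rows read the precursor was not tested. The filter stands close to many members. The dimmest that passed were Mir877 (higher signal 6.45), Mir124a-2 (6.45) and Mir3093 (6.47). The brightest that did not were Mir1967 (6.44), Mir687 (6.43) and Mir122a (6.42). Mir1967 had 5.91 in control and 6.44 in ablated cells, 0.53 apart, and is not described further.

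**Figure D1:**
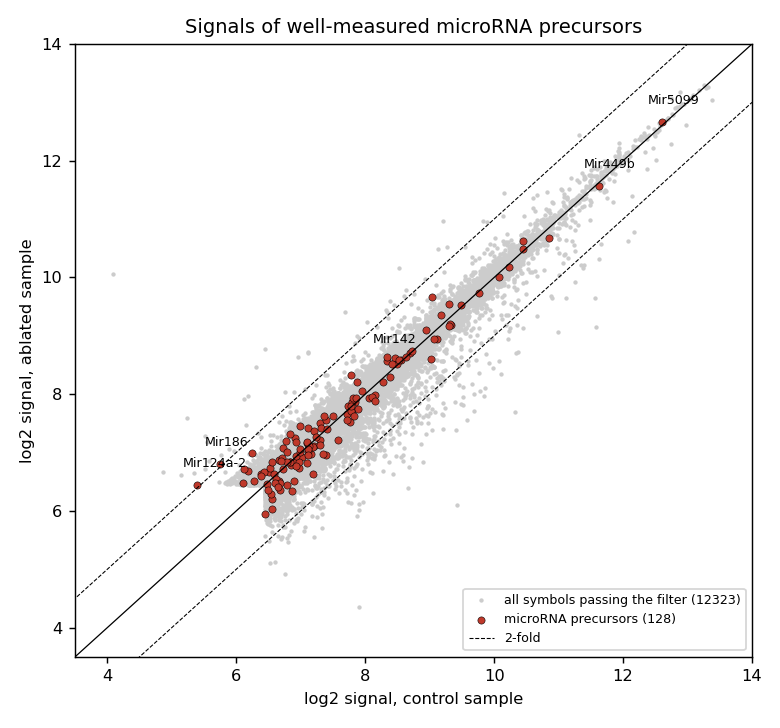
Log2 signal of the ablated sample (vertical axis) against the control sample (horizontal axis) for the 128 microRNA precursors (red) and all 12323 symbols passing the filter (grey), with dashed lines at 2-fold. The red points follow the diagonal from 6 to 12.66, and Mir186 and Mir124a-2 lie on the upper dashed line.

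As a set, the members differed little between the samples. The ablated signal was higher than the control signal in 64 of 128, lower in 61 and equal in 3, with a median difference of 0.005. All passing symbols had a median of 0.02. Of the members, 95 (74.2%) lay within 0.25 of equality, as did 74.7% of all passing symbols. Higher by 2-fold or more with Gli2 ablated were 2 members, or 1.56%, beside a background of 0.373% of all passing symbols. At least 2-fold lower were 0 members, beside a background of 1.73%. At 1.5-fold, 5 members (3.91%) were higher and 0 were lower, beside backgrounds of 1.25% and 4.67%. These counts are small, they come from 1 pair of arrays, and the filter acts on the same signals, so nothing is read from their distance to the background.

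The 2 members past 2-fold were both dim. Mir124a-2, a precursor of the neuronal microRNA miR-124, had 5.39 in control and 6.45 in ablated cells. Mir186, which lies within the splicing factor gene Zranb2, had 5.74 and 6.80. Both differences were 1.06, or 2.08-fold, and both control signals lay below the filter. Each of these members passed only through the ablated sample, where it was high.

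Of the 128 members, 19 had 1 of their signals below the filter, and they held both 2-fold differences and 4 of the 5 past 1.5-fold. The share over all symbols with 1 signal below the filter was not computed, so these counts have no matching background. The other 109 members had both signals above the filter: 54 were higher in the ablated sample and 52 lower, 0 were 2-fold apart, and 1 was past 1.5-fold. Among all 11270 symbols with both signals above the filter, 0.231% were at least 2-fold higher, 1.37% at least 2-fold lower and 0.949% and 3.63% at least 1.5-fold higher and lower. That 1 member was Mir101c, with 9.03 in control and 9.66 in ablated cells (0.63). The other members past 1.5-fold were Mir3101, with 6.25 and 7.0 (0.75), and Mir669j, with 6.12 and 6.72 (0.60). The row of Mir3101 also lists the coding genes Rab4b and Mia1, so its signal need not come from the precursor.

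Below these came Mir5104 (7.78 and 8.33, difference 0.55), Mir540 (6.18 and 6.68, 0.50), Mir3066 (6.84 and 7.31, 0.47), Mir27a (6.99 and 7.45, 0.46) and Mir423 (6.77 and 7.20, 0.43). At the lower end stood Mir301b, a gene of the miR-130 and miR-301 family, with 7.19 in control and 6.64 in ablated cells, a difference of -0.55. Mir3092 had 6.87 and 6.34 (-0.53), and Mir1192 had 6.55 and 6.04 (-0.51). Mir877, known as a mirtron, a spliced intron whose hairpin needs no cut by Drosha, had 6.45 and 5.95 (-0.50). Mir23a had 7.39 and 6.95 (-0.44) and Mir568 9.02 and 8.61 (-0.41). Mir466d and Mir713 each had a difference of -0.37, and Mir1963 and Mir324 each had -0.35.

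The spread of the members' differences is given for low and high signals apart. The filter itself widens it at low signal, because a member with a low mean passes only where 1 of its signals is high enough. The 19 members with 1 signal below the filter had a spread, taken as the median absolute deviation scaled to match a standard deviation, of 0.68 and the other 109 one of 0.19. Members with a mean signal up to their median of 7.19 had 0.32. Brighter members had 0.19. All passing symbols in those 2 ranges of signal had 0.25 and 0.18. Of the 10 members with the highest differences, 7 had a mean signal below 7.19, as had 8 of the 10 with the lowest.

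**Figure D2:**
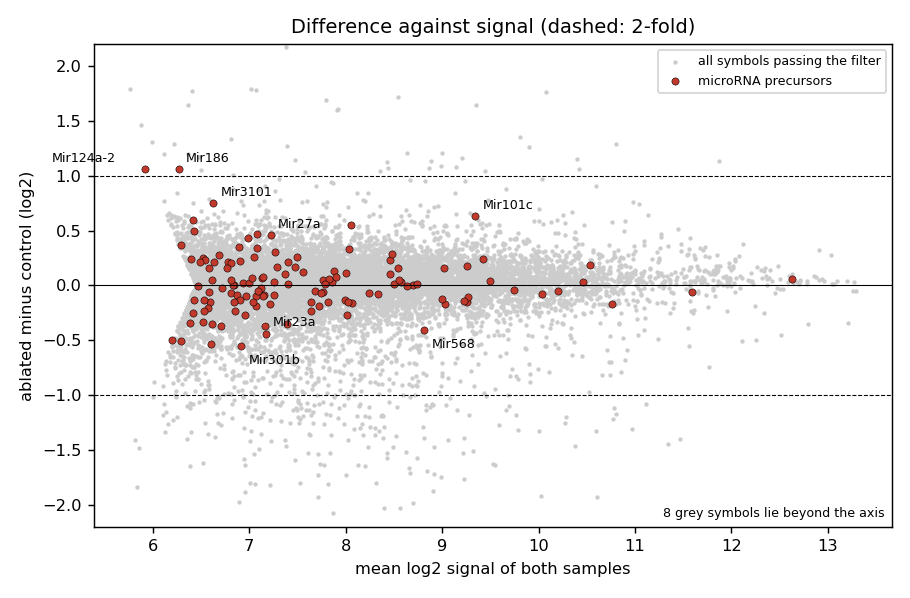
Difference of the log2 signals, ablated minus control (vertical axis), against their mean (horizontal axis) for microRNA precursors (red) and all passing symbols (grey), with dashed lines at 2-fold. Differences of the precursors narrow from a spread of 0.32 among the dimmer to 0.19 among the brighter members, and no precursor lies near the grey symbols below -1.

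MicroRNA genes that mark cell types were set beside the protein markers of the same cells. Mir142, which blood cells of all lineages use, had 8.34 in control and 8.57 in ablated cells (0.23). Mir155, made from the Bic transcript in activated lymphocytes and macrophages, had 8.15 and 7.99 (-0.16), on a row that also lists an uncharacterised transcript. The lymphocyte microRNA gene Mir150 (5.81 and 5.26) and Mir146 (3.74 and 3.08) stayed below the filter, and Mir223 was not found by symbol. All 8 leukocyte protein markers passed. In the ablated sample 6 were higher and 2 lower, the median was 0.08, and the natural killer cell receptor gene Klrk1 stood apart with 8.19 and 9.15 (0.96). Summed over the list, their log2 level was 13.37 in the control and 13.52 in the ablated sample, and the part of this in Mir142 and Mir155 was not tested.

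Mesenchymal microRNA genes were near or below the filter, while fibroblast protein markers were bright. Mir143, a microRNA gene of smooth muscle and other mesenchyme, had 6.85 in control and 6.78 in ablated cells (-0.07). Its neighbour on the same primary transcript, Mir145, had 3.83 and 3.39. Mir199a-1 had 5.0 and 4.57, Mir199b had 2.89 and 3.47, and Mir199a-2 and Mir214 were not found by symbol. Summed on the linear scale and given as log2, the fibroblast protein list was at 13.83 in the control and 12.99 in the ablated sample, and the 4 mesenchymal microRNA genes were at 7.40 and 7.28. The difference of Mir143 was thus near 0 beside a fibroblast list median of -1.34, and the part of the fibroblast RNA in it was not tested.

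None of the 10 epithelial microRNA genes passed, with signals of 3.01 to 5.96 in the control sample and 2.87 to 6.07 in the ablated sample. They included the Mir200 family, which holds epithelial identity by repressing Zeb factors: Mir200a had 5.53 and 5.47, Mir200b 5.95 and 5.99, Mir200c 4.89 and 5.14, and Mir429 5.96 and 6.07. The endothelial gene Mir126 (3.04 and 2.91), both listed erythroid genes (Mir144 and Mir451) and all 5 listed striated muscle genes found also stayed below the filter. Mir486 and Mir1b were not on these lists, passed the filter and are given below. All 11 let-7 symbols, precursors of a family found in nearly every differentiated cell, lay below the filter, and their highest signal was 6.13. In the same samples 4 of 6 epithelial and all 3 endothelial protein markers passed the filter. Of all microRNA symbols only 128 of 526 passed, beside 12323 of 24646 symbols of any kind. Nothing is therefore read from the pass counts of microRNA genes beside those of protein markers.

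Members known from other settings differed by little. Mir210, the microRNA gene induced by low oxygen, had 7.71 and 7.66. Mir375, known from pancreatic islets, had 6.92 and 6.77, and Mir194-1, known from liver and gut, 7.16 and 6.97. Mir486 lies within Ank1 and is known from red cells and muscle. It had 7.87 and 8.20 (0.33) on a row that also lists Mir3107, and 5.77 and 5.62 on its other row, so its rows differed in direction. Mir483, inside the growth factor gene Igf2, had 7.80 and 7.86, while Igf2 had 6.64 and 6.33.

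Members that share a seed differed by like or unlike amounts. Mir15a (6.67 in the control and 6.88 in the ablated sample) and Mir16-2 (7.30 and 7.51), from a family known to restrain cell division, each had a difference of 0.21. Their seed is AGCAGCA, shown above. Their respective neighbours Mir16-1 (6.01 and 5.61) and Mir15b (5.15 and 5.61) were below the filter and had differences of -0.40 and 0.46. Mir7-1 (7.36 and 7.62) and Mir7b (6.78 and 6.83) had 0.26 and 0.05. Mir25 (6.68 and 6.47) and Mir92b (7.78 and 7.79) had -0.21 and 0.01, and the row of Mir25 also lists Mcm7. Mir674 (8.15 and 7.88) and Mir3473d (7.78 and 7.71) had -0.27 and -0.07. Mir680-1 (8.41 and 8.51) and Mir680-2 (10.23 and 10.18) had 0.10 and -0.05. Mir181c (7.76 and 7.53) and Mir181d (7.12 and 7.42), of a family known from lymphocyte development, had -0.23 and 0.30. The members of 3 pairs had the same sign and a distance of at most 0.21, and those of the Mir181 pair were farthest apart.

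Neighbouring microRNA genes that sit within 10 kb of each other are usually cut from 1 primary transcript. By the RefSeq gene positions, 5 such genomic clusters held at least 2 members, 19 members in all. Each of the 5 clusters held members of either sign. Mir23a, Mir27a and Mir24-2 of chromosome 8 come from 1 transcript. Mir23a had a difference of -0.44 and Mir27a one of 0.46, so that neighbours on that transcript lay 0.90 apart. Mir24-2 was below the filter at 5.67 and 5.38. Mir181c and Mir181d, also neighbours on chromosome 8, lay 0.53 apart.

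The cluster with the most well-measured members, 8, lies inside Sfmbt2 on chromosome 2 and holds the Mir466, Mir467, Mir669 and Mir297 genes, a rodent family active in placenta. Of its 26 measured symbols, 8 passed, of which 6 were lower and 2 higher with Gli2 ablated (median -0.13). The brightest were Mir466h (9.32 and 9.21), Mir467e (9.30 and 9.16) and Mir467c (8.53 and 8.58). Mir466d had -0.37, Mir297a-4 -0.33, Mir669m-1 -0.23 and Mir669a-3 -0.10, whereas Mir669j had 0.60. Sfmbt2 itself had 5.71 and 5.95 and stayed below the filter. Genes of this family are near-identical in sequence, so their rows may share signal.

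The imprinted Dlk1-Dio3 domain of chromosome 12 holds 2 of the clusters, which are cut from long RNAs made from the maternal copy. In the cluster inside Rtl1 (6.50 and 6.11, -0.39, strand not known here), 4 of 7 measured symbols passed. Mir673 (8.73 and 8.74) and Mir665 (7.86 and 7.94) were nearly equal in both samples, Mir540 had 0.50 and Mir3070a (6.55 and 6.21) had -0.34. In the larger cluster, 3 of 34 measured symbols passed: Mir329 (6.97 and 6.84), Mir666 (6.49 and 6.36) and Mir134 (6.39 and 6.64), whose row also lists the noncoding host Mirg. Over all 34, without the filter, 23 were lower, 10 higher and 1 equal, with a median of -0.13, and the 31 others stood below the filter. Of all 24646 symbols, 11582 were lower and 12313 higher. Of the 398 microRNA symbols below the filter, 218 were lower and 166 higher, with a median of -0.06. Of the long noncoding RNAs of the domain, Meg3 had 6.90 and 6.61 (-0.29). Rian, the host of Mir341, had 6.44 and 5.61 (-0.83), both below the filter, while Mir341 had 7.32 and 7.42 (0.10). Mirg had 4.01 and 4.27.

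**Figure D3:**
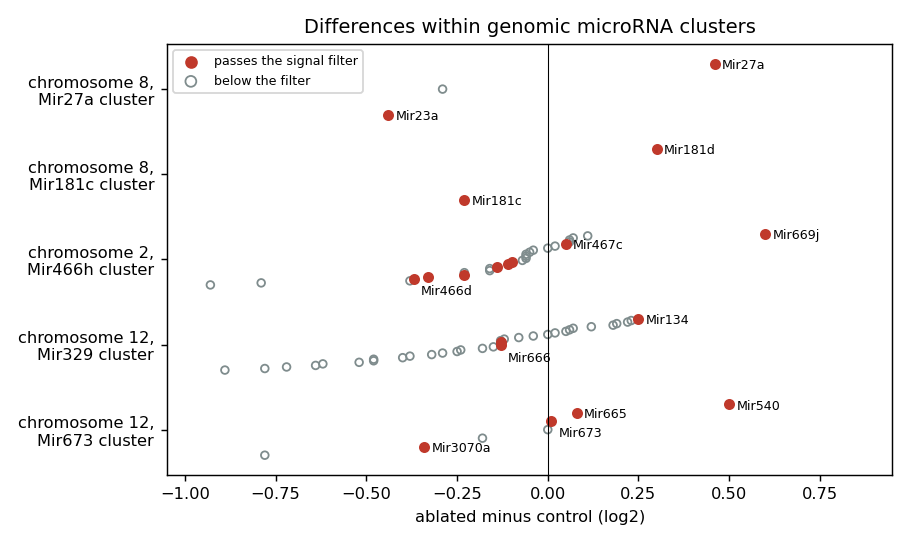
Difference of the log2 signals, ablated minus control (horizontal axis), for every measured microRNA symbol of the 5 genomic clusters that hold at least 2 well-measured members (rows). Filled points pass the signal filter, open points do not, and within each row filled points lie on either side of 0, with Mir23a at -0.44 and Mir27a at 0.46.

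Of the 128 members, 90 lie inside another RefSeq gene, and for 56 of these the gene is known to run on the same strand, so that it could be the host. Both the member and the host passed the filter in 45 pairs. The differences had the same sign in 25 pairs and opposite signs in 18, and 2 members had a difference of 0. Across these pairs, which share both arrays and are not independent replicates, the differences of member and host had a Pearson r of 0.26 and a Spearman rho of 0.15. The mean signals of member and host had a Pearson r of 0.38. In some of the 45 pairs the member's row also lists the host, so the member's signal may come from the host. Among them are Mir3101 with Rab4b, Mir25 with Mcm7, Mir330 with Eml2 and Mir5133 with Glce.

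For members at either end of the range, the host's difference is given beside the member's where the strand is the same and the host passed. Mir186 had 1.06 and its host Zranb2 -0.07 (8.15 in the control and 8.08 in the ablated sample). Mir5104 had 0.55 and Zc3h12d, a regulator of immune messenger RNA, 0.07 (8.56 and 8.63). Mir3066 had 0.47 and Nol10 0.10, Mir423 had 0.43 and Nsrp1 0.13, and Mir3101, whose row also lists Rab4b, had 0.75 and Rab4b 0.23 (8.60 and 8.83). The mirtron Mir877 had -0.50 and Abcf1 -0.04 (7.81 and 7.77), and Mir1192 had -0.51 and Klf9 -0.06. These members were taken for their own large differences, so the gap to the host follows in part from that choice.

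Of the 45 hosts, 1 was at least 1.5-fold apart, beside backgrounds of 1.25% higher and 4.67% lower among all passing symbols. Nothing is read from that count. The host was Fndc3b, a fibronectin domain gene, with 8.57 in control and 7.71 in ablated cells (-0.86). Its member Mir3092 had -0.53, the second lowest of the members. The other hosts far below 0 had members near it. Fam114a1 had 6.98 and 6.41 (-0.57), while Mir574 had 7.81 and 7.94 (0.13). The translation factor gene Eif4e had 9.67 and 9.14 (-0.53), and Mir1956 had 9.33 and 9.18 (-0.15). The endothelial receptor gene Eng had 9.33 and 8.89 (-0.44), and Mir1954 had 8.50 and 8.51 (0.01). Among hosts above 0, Dleu2 had 7.02 and 7.48 (0.46) with Mir15a at 0.21, and Pank1 had 6.14 and 6.57 (0.43) with Mir107 at -0.09. Whether Smc4 runs on the strand of Mir16-2 is not given in the tables used here. It had 10.48 and 10.77 (0.29) beside 0.21 for Mir16-2.

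**Figure D4:**
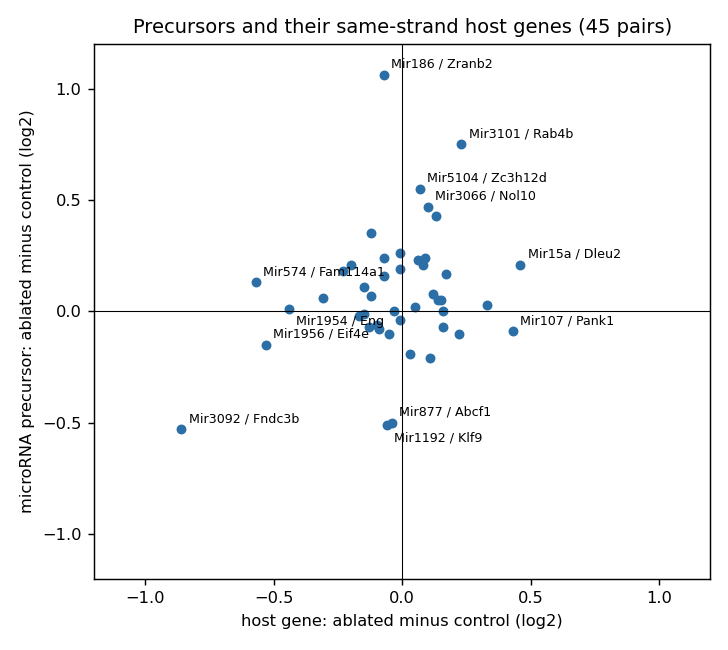
Difference of the microRNA precursor (vertical axis, log2, ablated minus control) against that of the same-strand gene that holds it (horizontal axis, log2) for the 45 pairs in which both passed the signal filter. Mir186 lies at 1.06 over a host at -0.07, and Mir3092 and Fndc3b are the pair farthest into the lower left, at -0.53 and -0.86.

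Some rows read more than 1 gene. Of the 128 rows, 12 list another gene or transcript beside the microRNA, among them Mir568 with Zbtb20, Mir324 with Dvl2, Mir330 with Eml2, Mir707 with Akt1s1 and Mir5133 with Glce. Of these, 5 were higher and 7 lower, with a median of -0.04, and the other 116 had a median of 0.01. Another 6 rows, 1 of them also among the 12, list several microRNA genes, and 5 members stand on more than 1 row of the table. Both rows of Mir191 had a like difference (6.28 and 6.52 on the row used, 5.6 and 5.82 on the other). Mir24-1 had 6.38 and 6.59 on the row used and 3.06 and 2.65 on the other, so the sign of its difference turns with the row. Mir1b had 6.71 and 6.91 on the row used and 2.34 and 2.24 on the other, and with Mir486 that makes 3 of the 5 whose sign turns.

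Genes that make and use microRNAs were measured well and had small differences. Of 30 listed genes all were found, and 26 passed the filter. With Gli2 ablated 18 were higher and 6 lower, and the median was 0.045. Of all 12323 passing symbols, 6528 were higher and 5515 lower, with a median of 0.02. None was 1.5-fold apart, where 1.25% of all passing symbols were higher and 4.67% lower. The nuclear processing genes Drosha (7.42 and 7.57) and Dgcr8 (7.26 and 7.33), the exporter Xpo5 (8.29 and 8.19) and the hairpin-cutting enzyme gene Dicer1 (9.30 and 9.31) were at like levels in both samples. Of the Argonaute genes, Ago2, listed as Eif2c2, had 10.31 and 10.34, while Ago1 (Eif2c1) and Ago3 (Eif2c3) each had a difference of 0.10 and Ago4 (Eif2c4) stayed below the filter at 5.11 and 5.44. Of the 26 that passed, those farthest from 0 were Ran, the GTPase of nuclear export (7.42 and 7.13, -0.29), and Tnrc6b, a silencing partner of Argonaute (8.91 and 9.18, 0.27). The let-7 blockers Lin28a and Lin28b lay below the filter, and Tut4 (Zcchc11), which tails let-7 precursors, had 10.36 and 10.54.

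The base composition of the hairpin went with the signal. For 428 of the 526 microRNA symbols a hairpin sequence was at hand, with 26.2% to 74.8% of its bases G or C. Across these symbols, which share both arrays, the G and C content and the mean signal had a Pearson r of 0.41 and a Spearman rho of 0.45. The symbols were split into 4 groups by G and C content. Of the hairpins with the least G and C (26.2% to 42.6%), 13 of 108 passed the filter. Of those with the most (54.5% to 74.8%), 46 of 107 passed (43.0%). The median of the mean signal was 3.65 in the first and 5.95 in the other, and the median difference between the samples was -0.01 and -0.05.

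Members had a median G and C content of 54.1%, and symbols below the filter 47.4%. Mir27a had 59.8% and Mir23a 56.0%. Mir186 had 33.8% and the brightest member, Mir5099, 37.8%. Within the 94 members with a hairpin sequence the correlation of G and C content with signal was -0.13 (Pearson) and -0.06 (Spearman), and that with the difference was -0.25 and -0.27.

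**Figure D5:**
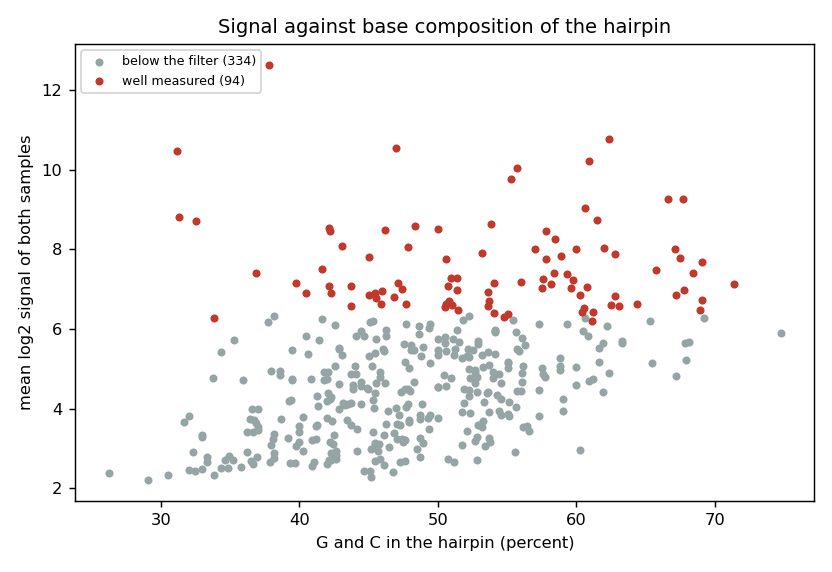
Mean log2 signal of both samples (vertical axis) against the percent of G and C in the hairpin (horizontal axis) for 94 well-measured members (red) and 334 microRNA symbols below the filter (grey). Symbols with more G and C tend to lie higher, and of the 107 hairpins with the most G and C 46 passed the filter, against 13 of the 108 with the least.

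The 398 microRNA symbols below the filter leaned slightly lower. In the ablated sample 218 were lower, 166 higher and 14 equal, with a median of -0.06, where the other 11925 symbols below the filter had a median of 0. At least 2-fold higher were 3 of them (0.754%), Mir701 (3.68 and 4.80), Mir1948 (3.67 and 4.77) and Mir1951 (4.97 and 5.99), and 0 were 2-fold lower. Of the other 11925 symbols below the filter, 0.218% were at least 2-fold higher and 0.143% at least 2-fold lower. The 398 were dimmer than these, with a median of the mean signal of 4.32 against 5.315, and had a wider spread (0.27 against 0.24). The others are thus no background of like signal, and nothing is read from the distance to them. Over all 526 microRNA symbols, 5 (0.951%) were at least 2-fold higher and 0 were lower, beside 0.304% and 0.933% of all 24646 symbols. At 1.5-fold, 21 (3.99%) were higher and 19 (3.61%) lower, beside 1.72% and 3.3%. The 526 were also dimmer, with a median of the mean signal of 4.90 beside 6.34 over all symbols, so these shares are not matched by signal. No signal of these symbols is shown to exceed background, since the table holds no detection calls.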

How the data were processed

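RNA of 1 control and 1 ablated sample was measured on Affymetrix arrays, per the labels' protocols. The authors deposited a log2 signal (a bi-weight average) per transcript cluster, per the file headers, and a signed fold of control over ablated, used here like a score, with a minus sign for symbols above control after ablation. The submitters' processing notes name Transcriptome Analysis Console. For array design, background correction, normalization and build, nothing was stated in the labels or file headers. A second deposited table holds the same log2 signals with more decimals.

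Differences are ablated minus control log2 signals, and 2-fold (or 1.5-fold) was the size used for counts. No test was run, since each group has 1 sample. Members, gene lists and role groups were chosen with earlier results of these data known. Named members are those at least 2-fold apart, the 10 highest, 10 lowest and 10 brightest, and 3 on each side of the filter. All members in genomic clusters with at least 2 members passing are named too. Also named are some of their hosts but not all, the cell type markers, and biogenesis genes at least 1.5-fold apart, of which there were 0. Other members, chosen after their values were seen, are Mir210, Mir375, Mir194-1, Mir486, Mir483, Mir1956, Mir1954, Mir574, Mir107, Mir341, Mir191, Mir24-1, Mir1b, those sharing a seed and those listed with another gene, as are all biogenesis genes named. RefSeq (GRCm38.p6) gave names, sequences, neighbours within 10 kb and genes that hold a member. Only the count past 2-fold was checked on simulated data, where larger differences were set into bright symbols. Tables were handled with pandas 2.3.3 and numpy 2.4.6 in Python 3.11.15, loess came from statsmodels 0.14.6, and plots from matplotlib 3.10.9.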

Additional observations from a re-analysis of the deposited data

How the results depend on the processing

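The 2 members at least 2-fold higher became 1 with the median difference over all rows set to 0, since Mir124a-2 then failed the filter. It was 0 when symbols had to reach the 75th percentile (42 members) or 3-fold, and 5 at 1.5-fold or without a filter (526 symbols). It stayed at 2 under quantile normalization, loess, the mean over rows, the deposited fold, the series matrix values and 1 symbol per genomic cluster. The count at least 2-fold lower was 0 under all 12 alternatives. The median difference of members ran from -0.04 (no filter) to 0.01, and its sign turned under the 3 scalings, so it has no direction. The median of the biogenesis genes also turned under loess (-0.01). Among 49 named members, 1 to 4 turned sign under a scaling, with shifts of at most 0.05. No symbol that passed ended in hg. No paired analysis was possible because each group has 1 sample.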

Other observations

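The 2 deposited tables agreed within rounding (a tolerance of 0.0051) in all but 2 of 41345 rows, and none of the members was among them. The exceptions were Gli2 and Bmp7. Gli2 had 5.94 in control and 5.32 in ablated cells in the comparison table (difference -0.62), and 5.94 and 5.72 in the series matrix (-0.22). Bmp7 had 7.79 and 7.14 in the comparison table (-0.65), and 7.90 and 7.56 in the series matrix (-0.35). The signed folds in the authors' deposited table, 1.56 and 1.58, follow the signals of the comparison table, as they do over all rows (within 0.0215 on the log2 scale). In both genes the comparison table gives the lower ablated signal, and the cause was not tested.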
